A study of Mus musculus with 8 samples.

Results

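The 37 genes examined here encode complement components, coagulation factors and their inhibitors, nearly all of them secreted plasma proteins. They were taken from a list of gene symbols that was proposed with earlier results of these data known. Every probe whose RefSeq accession maps to a listed symbol was collected. This gave 48 probes among 55681 on the array, and all 37 genes were among the 14060 genes tested. Liver RNA from 8 mice aged 10 weeks, 1 mouse per array, had been hybridized to Agilent arrays read in 1 colour. The groups were 4 Rap1 -/- mice, which lack the shelterin protein RAP1 (gene Terf2ip) in the whole body, and 4 wild-type mice. Both genotypes had the mixed C57BL6/129SV background. The deletion came from a floxed allele recombined early in development by Cre under the adenovirus EIIa promoter, after which the Cre transgene was bred out. The labels state neither sex nor feeding state. The study's text speaks of females at this age, profiled ahead of obesity, and in one place of fasted ones, and it does not settle which of these arrays they were.

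Complement is a cascade of plasma proteins that marks and lyses microbes. Lectins or antibodies start it, convertases cleave C3, and the terminal components assemble into a pore. Coagulation is a parallel cascade of serine proteases that ends when thrombin turns fibrinogen into fibrin, and plasmin later dissolves the clot. Serpins and cofactors restrain both cascades, and hepatocytes make most of these proteins, so that liver mRNA is their main source. Several of the genes also respond to interleukin-6 in the acute phase reaction.

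In Rap1-deficient liver 0 of the 37 genes passed an adjusted p under 0.05, against 0.0142% of all genes tested (limma). The smallest adjusted p among them was 0.770. At an unadjusted p under 0.05 there were 2 of 37, F11 and Proz, both higher in the knockout, against a background of 6.35% of all genes (4.00% higher). Which genes reached that level depended on the processing. Quantile normalization gave 1 higher (F11) and 2 lower (C4b and C9), with or without normexp. Cyclic loess gave 1 higher (F11) and 4 lower (C4b, C9, Hc and Kng1). With the scaling unchanged, trended and robust variance gave 2 higher (F11 and Proz) and 2 lower (C4b and C9). F11 and Proz were above 0, and C4b, C9, Hc and Kng1 below 0, under each of 20 alternatives. All of these draw on the same 8 arrays, so a shared direction is not independent evidence. The other Kng1 probe, taken alone, was at 0.13. The arrays of the genotypes did not overlap for F11, where the knockout was higher, and for C3, where it was lower, against 4.31% of all genes (3.01% higher and 1.30% lower in the knockout). Both shares are near the background and are not a result about these genes. Log2 fold changes, taken as knockout less wild type, ran from -0.27 for C9 to 0.30 for F11. For 34 of 37 genes the 95% confidence interval lay within a 1.5-fold change in either direction, and the exceptions were C6, C8a and C8b. The probe representing each gene was well above background on all 8 arrays.

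**Figure D1:**
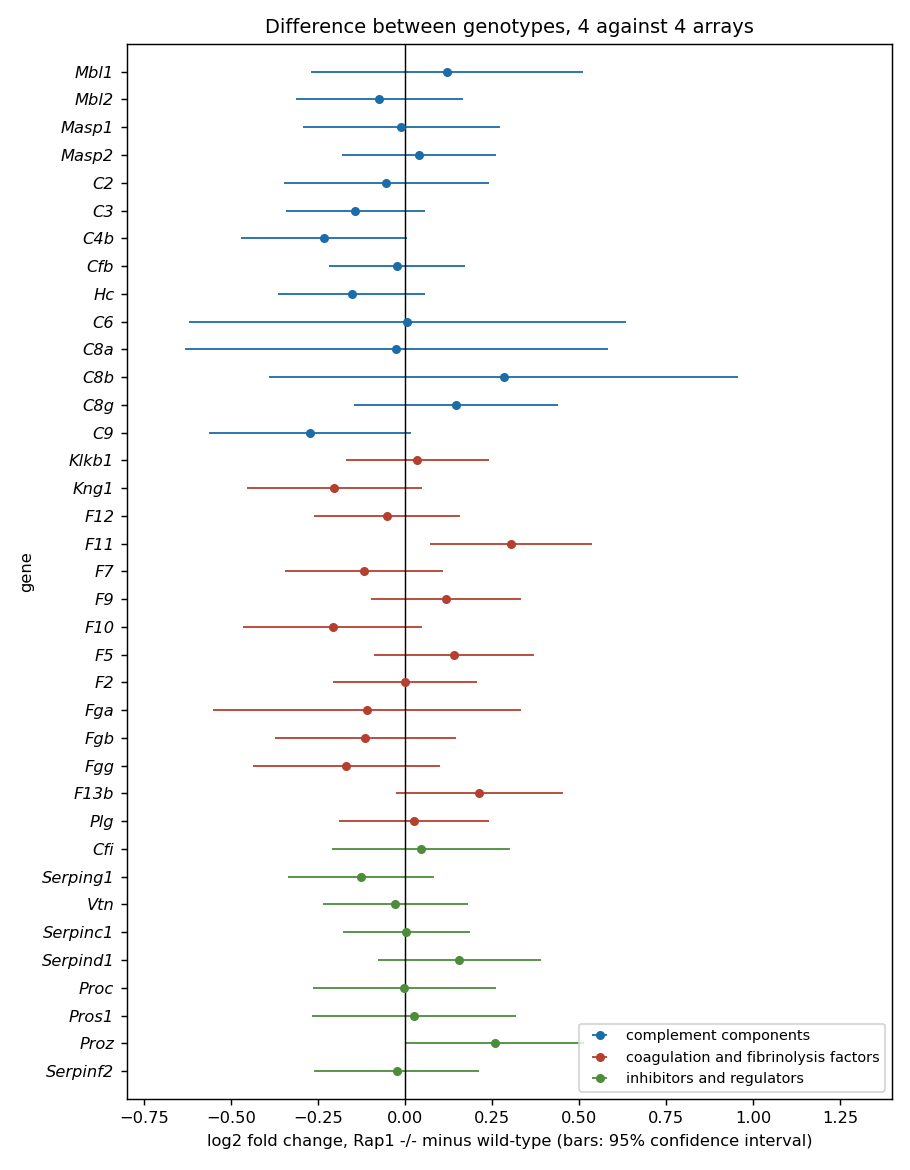
Horizontal axis, log2 fold change of the 37 genes in knockout relative to wild-type liver (4 arrays each), ordered by role. Each point is a limma estimate with its 95% confidence interval as a bar. The intervals include 0 for all genes except F11 (0.30) and Proz (0.26), and are widest for C6, C8a and C8b.

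The values below are log2 signals relative to the 75th percentile of each array, and they compare mice within a probe, not genes with each other. The targeted gene was read by a pair of probes. In wild-type liver A_52_P381806 read 0.14 ± 0.09 (SD, n = 4), and on 0 of the 4 knockout arrays was it well above background, whereas A_55_P2094079 was at -0.92 ± 0.22 in wild-type and at 0.29 ± 0.18 in knockout liver. Neither the labels nor the methods say which of them lies in the deleted part. The percentile signal itself was between 179 and 209 in wild-type and between 220 and 227 in knockout arrays, and the share of probes well above background ran from 50.03% to 65.3%. Each of 2 slides held 2 mice of each genotype, so slide is balanced, while wild-type arrays had positions 1 and 2 and knockout arrays positions 3 and 4, so that position and genotype cannot be told apart. The labels describe the mice as biological replicates.

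Of the 14 complement components, 5 were above 0 and 9 below, with a median log2 fold change of -0.02, where the median of all genes tested was 0.02. Of all 14060 genes tested, 7894 were above 0 and 6166 below. None of the 14 passed, and none had an unadjusted p under 0.05. Lectin pathway initiators differed little between genotypes. The mannose-binding lectins Mbl1 and Mbl2 and their proteases Masp1 and Masp2 lay between -0.07 and 0.12, and the 3 Masp2 probes were all on the same side of 0.

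Components of the C3 and C5 convertases had the lowest median of the complement groups, -0.10 over C2, C3, C4b and Cfb. C3, the central component that all pathways cleave, was at 10.86, 10.75, 10.73 and 10.72 in wild-type replicates 1 to 4 and at 10.64, 10.65, 10.69 and 10.52 in knockout replicates 1 to 4. Every knockout mouse was thus below every wild-type mouse, by a narrow margin. The log2 fold change was -0.14 (SE 0.09, limma adjusted p = 0.825), with a two-sided exact permutation p of 0.0286, which no comparison of 4 with 4 arrays can go below. Its direction was lost with quantile normalization (0.04) and with normexp and quantile normalization (0.01). Its other probe was at -0.13, and there the genotypes overlapped. On that probe knockout replicate 3 (10.20) lay above wild-type replicates 2, 3 and 4 (10.17, 10.19 and 10.19). C4b, which with C2 forms the classical and lectin convertase, was at 8.95, 9.03, 9.03 and 8.81 in wild-type mice and at 8.73, 8.78, 8.84 and 8.53 in knockout mice. The groups overlapped by 1 mouse on each side, and the difference of -0.23 (SE 0.10, adjusted p = 0.783, exact permutation p = 0.0571) was below 0 under each of 20 alternative analyses. C4b has a near-identical neighbour, C4a, that was not among the genes tested here, and its probe may read both. C2 and Cfb, the convertase genes near C4b on chromosome 17, were at -0.05 and -0.02.

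Terminal components differed most among themselves. C9, which lines the pore, was at 3.11, 3.34, 3.43 and 3.29 in wild-type mice and at 2.99, 3.31, 2.83 and 2.95 in knockout mice. The knockout replicate 2 value lay among the wild-type values and the others below them, and the difference was -0.27 (SE 0.13, adjusted p = 0.783, exact permutation p = 0.0857). Hc, which encodes C5, was at 8.14, 8.31, 8.34 and 8.31 in wild-type mice and at 8.10, 8.24, 8.11 and 8.03 in knockout mice, a difference of -0.15 (SE 0.09, adjusted p = 0.821). The genotypes overlapped through wild-type replicate 1 alone. C8g, the lipocalin-like chain of C8, was at 0.15 (SE 0.13), and its other probe at 0.16.

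C6, C8a and C8b varied more between mice than between genotypes. Their within-genotype SDs were 0.454, 0.437 and 0.490, the 3 highest of the 37 genes, whereas the median SD was 0.122 over the 37 genes and 0.211 over all genes tested. C8b, the chain that joins C8 to the nascent pore, was at 4.83, 4.38, 4.83 and 4.58 in wild-type mice and at 4.63, 5.87, 4.37 and 4.88 in knockout mice. Knockout replicate 2 stood well above the other mice, and the log2 fold change was 0.28 (SE 0.30, 95% confidence interval -0.39 to 0.96) with it and -0.03 without it. C8a, the pore-inserting chain encoded next to C8b on chromosome 4, was at 4.96, 5.23, 5.18 and 4.94 in wild-type mice and at 5.22, 5.81, 4.43 and 4.74 in knockout mice. Its second probe was again highest in knockout replicate 2 (2.16) and low in knockout replicates 3 and 4 (1.25 and 1.15). C6, on chromosome 15, was at 0.99, 0.58, 1.27 and 0.60 in wild-type mice and at 0.33, 1.61, 0.89 and 0.63 in knockout mice, a difference of 0.01 (SE 0.28). The highest of the 8 values was that of knockout replicate 2 for each of C6, C8a and C8b, as for 9 of the 37 genes in all (wild-type replicate 3 was highest for 14), and the 8 mice spanned 2.44-fold, 2.60-fold and 2.84-fold.

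**Figure D2:**
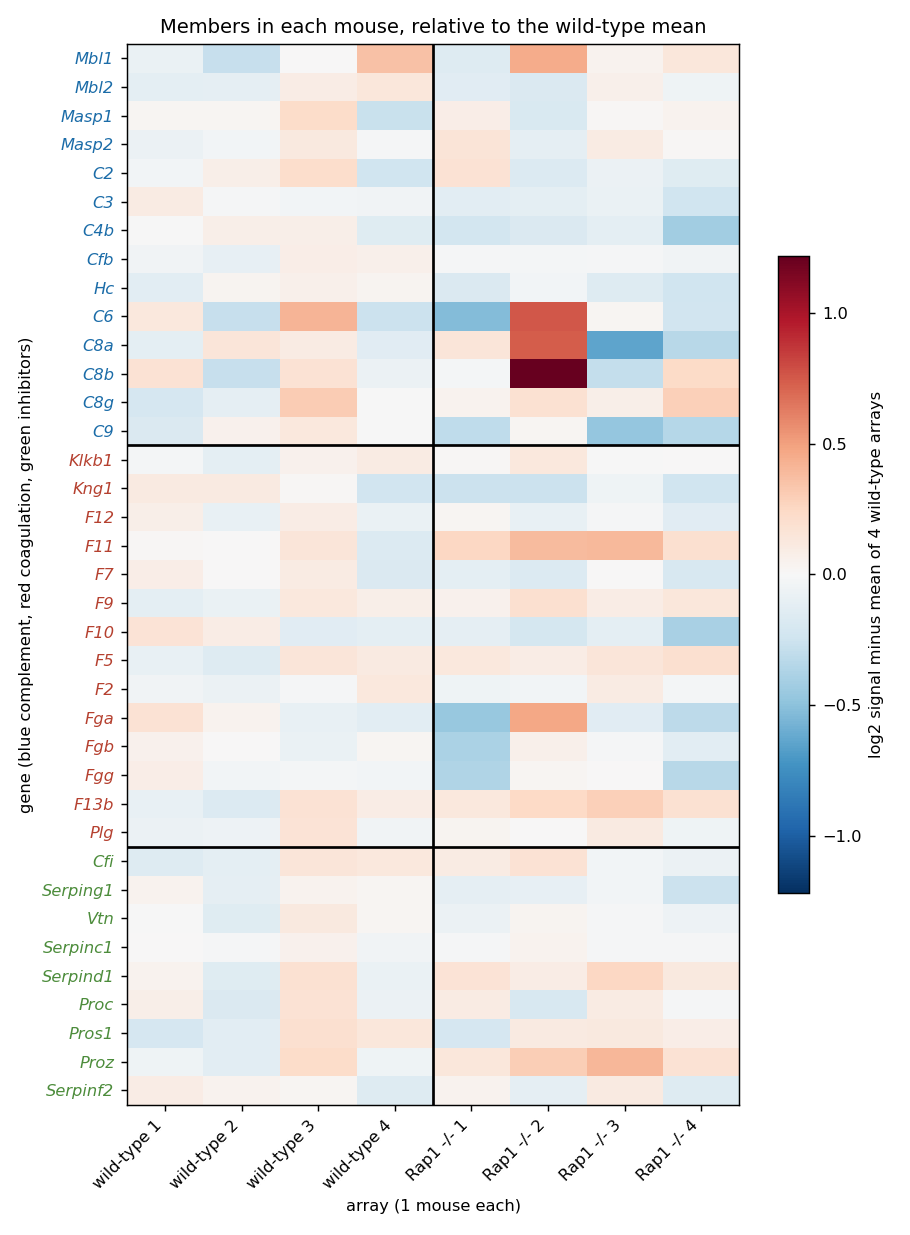
Log2 signal of each of the 37 genes (rows, by role) in each of the 8 arrays (columns), less the mean of the 4 wild-type arrays. Most cells are pale, F11 is above the wild-type mean in all 4 knockout mice, and C6, C8a, C8b and Fga stand out in knockout replicate 2.

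Of the 14 coagulation and fibrinolysis factors, 6 were above 0 and 8 below, with a median of -0.03. None passed, and 1, F11, had an unadjusted p under 0.05. In the contact system, F11 encodes factor XI, which activates factor IX. It was at 3.92, 3.91, 4.06 and 3.74 in wild-type mice and at 4.16, 4.29, 4.30 and 4.10 in knockout mice. All 4 knockout mice were above all 4 wild-type mice, a 1.24-fold difference (log2 fold change 0.30, SE 0.10, 95% confidence interval 0.07 to 0.54, limma adjusted p = 0.770, exact permutation p = 0.0286). The difference was 0.31 within slide 1 and 0.30 within slide 2. It stayed between 0.25 and 0.35 under the 20 alternatives, with adjusted p values from 0.753 to 0.999. Klkb1, the prekallikrein gene next to F11, was at 0.03, and F12, which starts contact activation, was at -0.05.

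Kng1, which encodes kininogen, the carrier of prekallikrein and factor XI, depended on the probe. The brighter probe was at 10.62, 10.62, 10.52 and 10.28 in wild-type mice and at 10.25, 10.25, 10.45 and 10.27 in knockout mice, a difference of -0.20 (SE 0.11, adjusted p = 0.797) that was -0.37 within slide 1 and -0.04 within slide 2. The other probe, assigned to another RefSeq transcript of the gene, was at 0.13 (95% confidence interval -0.11 to 0.36), so the gene has no settled direction. Kng1 also has a close paralogue, Kng2, and either probe may read both.

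In the protease cascade, F7, F9, F10, F5 and F2 went both ways. F10, the factor X gene where the intrinsic and extrinsic branches meet, was at 10.92, 10.84, 10.62 and 10.64 in wild-type mice and at 10.65, 10.54, 10.63 and 10.36 in knockout mice. The groups overlapped, and the difference was -0.21 (SE 0.11, adjusted p = 0.799, exact permutation p = 0.143), but the dimmer probe of F10 was at 0.01. F7, which with tissue factor starts coagulation, was at -0.12, and its other probe at -0.17. F9 and the cofactor gene F5 were at 0.12 and 0.14, and prothrombin, F2, was within 0.01 of no difference. F13b, which encodes the carrier subunit of factor XIII, was at 4.03, 3.96, 4.30 and 4.22 in wild-type mice and at 4.26, 4.38, 4.42 and 4.32 in knockout mice (0.21, SE 0.11, adjusted p = 0.789). A single wild-type mouse, replicate 3, lay above the lowest knockout mouse. Plg, the plasminogen gene, was at 0.02.

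The fibrinogen chains are encoded side by side on chromosome 3, and their promoters are shown because the 3 genes build 1 protein and share an element of the acute phase response. The 250 bases before each annotated start (RefSeq, GRCm38.p6) are given 5′ to 3′ on the gene's strand. Capitals mark CTGGGA, the core of the interleukin-6 response element known from fibrinogen genes, searched on both strands.
Fga (chr3:83025903-83026152, plus strand): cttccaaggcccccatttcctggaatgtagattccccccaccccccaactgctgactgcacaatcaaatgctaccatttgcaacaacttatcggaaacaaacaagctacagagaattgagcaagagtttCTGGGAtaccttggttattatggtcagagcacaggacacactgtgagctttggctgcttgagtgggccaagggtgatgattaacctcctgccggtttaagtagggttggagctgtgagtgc
Fgb (chr3:83049864-83050113, minus strand): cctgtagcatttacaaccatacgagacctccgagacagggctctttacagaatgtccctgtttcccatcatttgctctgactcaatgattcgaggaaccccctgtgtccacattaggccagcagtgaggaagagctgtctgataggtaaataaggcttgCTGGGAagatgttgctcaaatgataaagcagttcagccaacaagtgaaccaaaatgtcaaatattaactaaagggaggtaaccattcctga
Fgg (chr3:83007474-83007723, plus strand): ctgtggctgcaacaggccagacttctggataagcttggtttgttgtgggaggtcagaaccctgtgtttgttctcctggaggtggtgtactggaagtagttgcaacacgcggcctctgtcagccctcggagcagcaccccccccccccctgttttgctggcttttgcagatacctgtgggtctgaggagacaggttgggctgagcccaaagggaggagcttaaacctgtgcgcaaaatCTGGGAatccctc
Each promoter held 1 match, which began at base -121 of Fga, -91 of Fgb and -13 of Fgg. The motif is short, and 27.0% of 32851 promoters of this length held it. Of the 28 genes examined here with a listed promoter, 11 held it in any of their promoters. The share is per promoter and the count is per gene, so they cannot be compared directly. A match is a description and not a binding site.

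Fga was at 5.96, 5.82, 5.69 and 5.65 in wild-type mice and at 5.33, 6.26, 5.64 and 5.47 in knockout mice. Fgb was at 10.32, 10.26, 10.18 and 10.29 in wild-type mice and at 9.88, 10.33, 10.25 and 10.13 in knockout mice. Fgg was at 10.05, 9.94, 9.95 and 9.94 in wild-type mice and at 9.60, 9.99, 9.97 and 9.64 in knockout mice. On the brightest probe of each of the 3 chains, knockout replicates 1 and 4 were the lowest of the 8 mice. Knockout replicate 2 was the highest knockout mouse there. The knockout SD exceeded the wild-type SD (0.41 against 0.14 for Fga, 0.19 against 0.06 for Fgb, 0.21 against 0.05 for Fgg). The differences were -0.11 (SE 0.20), -0.11 (SE 0.11) and -0.17 (SE 0.12), with adjusted p values of 0.942, 0.881 and 0.840. Fgb changed sign with normexp and quantile normalization (0.02) and in the authors' table (0.04), and the dimmer Fga probe was at 0.04. That dimmer probe did not repeat the order of the mice. Its knockout replicate 1 (3.89) lay above wild-type replicates 3 and 4 (3.79 and 3.59). Its knockout replicate 3 (4.35) lay above knockout replicate 2 (4.30).

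**Figure D3:**
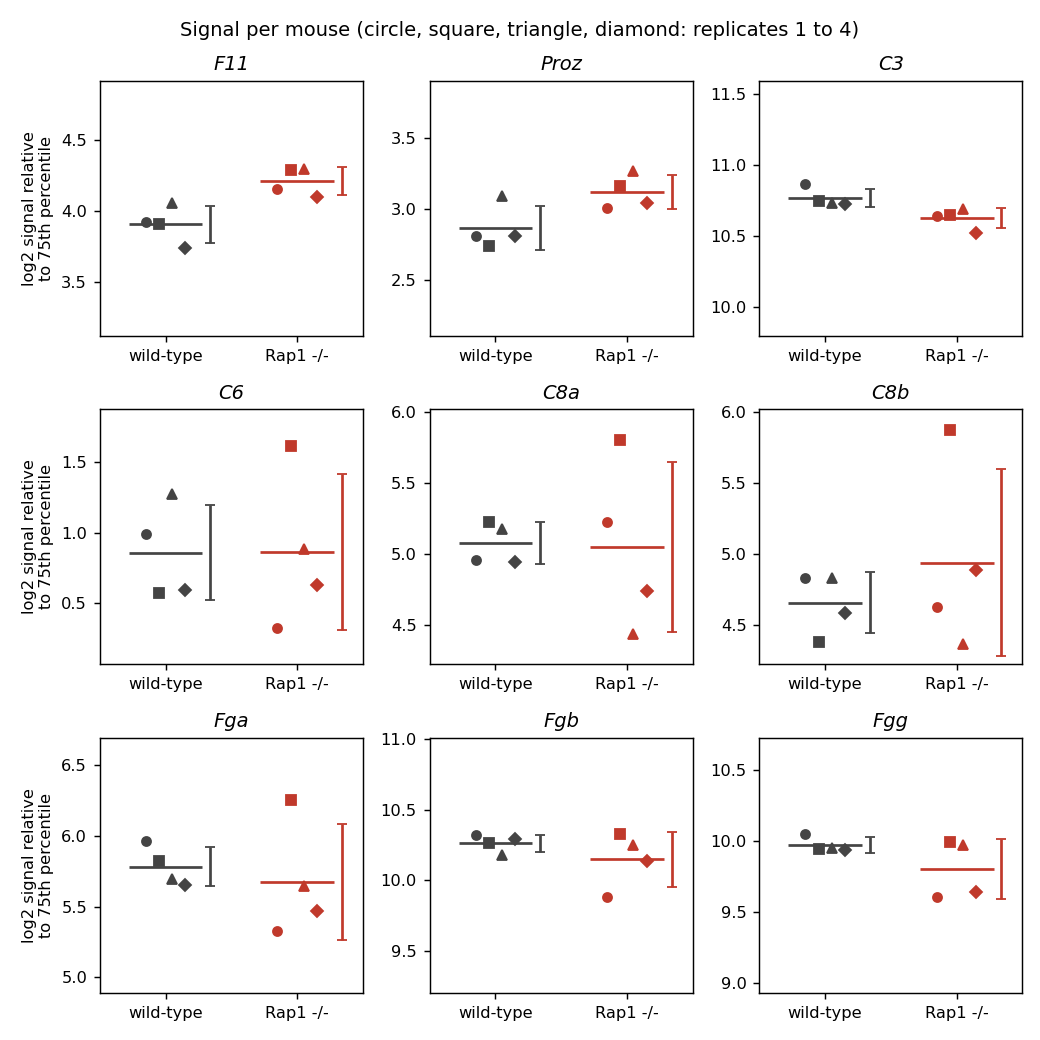
Log2 signal relative to the 75th percentile of the array for 9 genes in wild-type (dark grey) and Rap1 -/- (red) liver. Points are single mice, horizontal bars are means of 4 mice and whiskers are ± 1 SD, and each panel spans the same range. F11 and C3 show no overlap between genotypes, and knockout replicate 2 (square) is the highest of the 8 mice for C6, C8a, C8b, Fga and, by a narrow margin, Fgb.

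The 9 inhibitors and regulators had a median of 0.00, with 5 above 0 and 4 below. None passed, and 1, Proz, had an unadjusted p under 0.05. Proz encodes protein Z, the cofactor of an inhibitor of factor Xa. It was at 2.81, 2.74, 3.09 and 2.81 in wild-type mice and at 3.00, 3.17, 3.27 and 3.04 in knockout mice. Wild-type replicate 3 lay among the knockout mice and the other wild-type mice below them, a 1.20-fold difference (log2 fold change 0.26, SE 0.11, adjusted p = 0.781, exact permutation p = 0.0857). Proz lies beside F7 and F10 on chromosome 8, which were at -0.12 and -0.21, so that adjacent genes lay on both sides of 0.

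Serpind1, which encodes heparin cofactor II, was at 7.23, 7.03, 7.37 and 7.10 in wild-type mice and at 7.35, 7.27, 7.43 and 7.30 in knockout mice (0.15, SE 0.10, adjusted p = 0.832). Serping1, the C1 inhibitor gene that acts on complement and the contact system alike, was at 7.89, 7.74, 7.88 and 7.86 in wild-type mice and at 7.73, 7.74, 7.81 and 7.58 in knockout mice (-0.13, SE 0.09, adjusted p = 0.843). Its dimmer probe was at -0.01. Cfi, the protease that degrades C3b and C4b, was at 7.70, 7.73, 8.0004 and 7.98 in wild-type mice and at 7.95, 8.03, 7.82 and 7.78 in knockout mice, with the knockout above the wild type on slide 1 (0.28) and below it on slide 2 (-0.19). Serpinc1, the antithrombin gene, was the steadiest of the 37 genes, between 9.88 and 9.98 in all 8 mice, with a difference of 0.00 (95% confidence interval -0.18 to 0.19). The remaining members Vtn, Proc, Pros1 and Serpinf2, for vitronectin, protein C, protein S and α2-antiplasmin, lay between -0.03 and 0.02.

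Complement and coagulation were then set side by side. The medians were -0.02 and -0.03, and neither the difference between them nor that from the inhibitors was tested, because the members were chosen as lists. In single arrays the median deviation of the list from the wild-type mean ran from -0.06 to 0.11 in wild-type and from -0.10 to -0.03 in knockout mice for complement, from -0.05 to 0.07 and from -0.09 to 0.04 for coagulation, and from -0.12 to 0.15 and from -0.01 to 0.10 for inhibitors. The genotypes overlapped in each list.

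For the brightest probes the differences moved with signal and with the scaling. Of the 4 genes examined here with a mean log2 signal above 10, namely C3, F10, Fgb and Kng1, all 4 were below 0, with a median of -0.17. All 26 tested genes in that band had a median of -0.16, which was 0.01 after quantile normalization, and the 4 genes then had a median of -0.03. With cyclic loess the medians were -0.22 for all genes of the band and -0.24 for the 4 genes, all below 0. Between a signal of 4 and 6, 7 of 10 of the genes were above 0, with a median of 0.08, where all 1335 tested genes of that band had 0.06. F11, F13b and C8b were in this band. In the bands between, the genes did not follow the rest. From 6 to 8 their median was -0.03, with 4 of 6 below 0, against 0.08 for all genes, and from 8 to 10 it was -0.03, with 8 of 11 below 0, against 0.01. The bands and cyclic loess were chosen after the values were seen, and the part of probe signal in these differences was not tested.

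**Figure D4:**
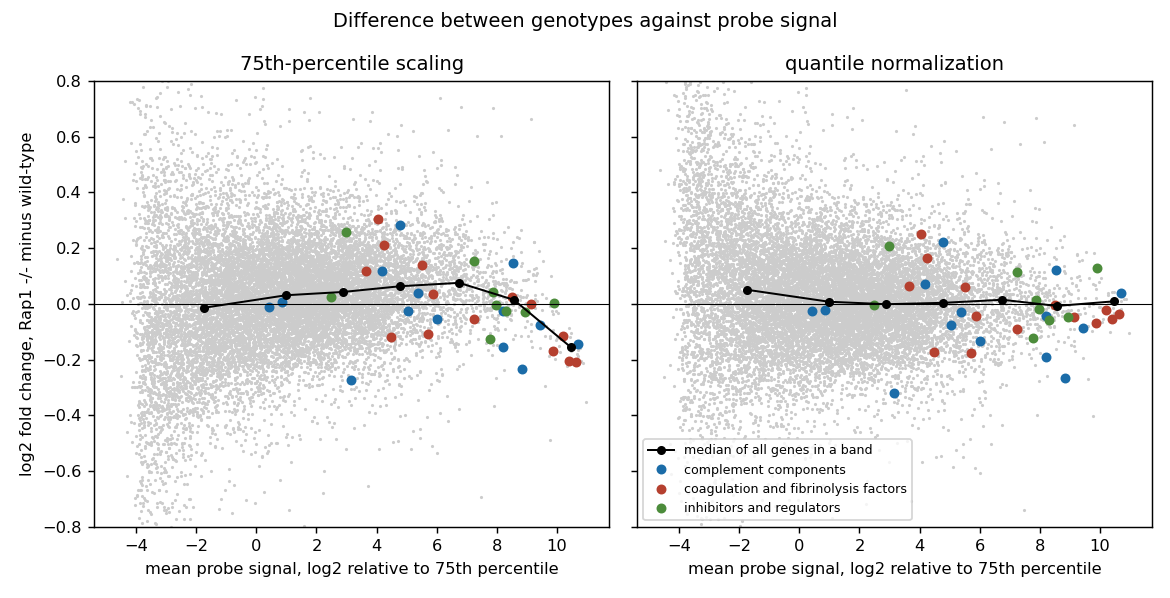
Log2 fold change (knockout minus wild type) against mean probe signal of 14060 genes (grey), with 75th-percentile scaling (left) and quantile normalization (right). Coloured points are the 37 genes and the black line joins medians of all genes in bands of signal, which lie between -0.16 (above 10) and 0.08 (from 6 to 8) on the left and between -0.01 and 0.05 on the right.

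By location, 5 of the 37 genes lie on chromosome 8 with Terf2ip, on the same side of it. In the order of tested genes Klkb1 and F11 were 447 and 448 genes away, and Proz, F10 and F7 were 579, 580 and 581 genes away. F11 and Proz, the genes with an unadjusted p under 0.05, were among these 5. Over all genes tested the share at that level was 6.35%. Klkb1, F10 and F7 were at 0.03, -0.21 and -0.12. The part of chromosomal position in these values was not tested.

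Other genes of the same cascades gave no call either. Of 32 further complement genes 26 were tested, 0 passed and 0 had an unadjusted p under 0.05. Their median was 0.06, with 17 above 0. Cfhr2, a gene related to factor H whose probe may read close relatives, was at 0.25 (SE 0.12), and Cd55, a convertase inhibitor on cell surfaces, was at 0.38 (SE 0.22). C1qc, a chain of the classical pathway initiator C1q, was at -0.29 (SE 0.18), and C1qa and C1qb were both at -0.17. Macrophages are the main source of C1q, and 7 of 7 tested Kupffer cell markers were below 0, with a median of -0.13 and a log2 summed signal from 7.53 to 7.99 in wild-type and from 7.17 to 7.92 in knockout mice. Of all 14060 genes tested, 6166 were below 0. Vsig4 was counted both among these markers and among the further complement genes. The part of Kupffer cells in the C1q values was not tested.

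Of 32 further coagulation genes 28 were tested, 0 passed and 1, Mcfd2, had an unadjusted p under 0.05. Mcfd2, which exports factors V and VIII from the endoplasmic reticulum, was at 0.26 (SE 0.11, adjusted p = 0.770), and Ggcx, the vitamin K-dependent carboxylase, at 0.21 (SE 0.10). Vwf, the von Willebrand factor gene of endothelium, was at 0.41 (SE 0.26), and Fgl1, a fibrinogen-like acute phase gene, at -0.37 (SE 0.17). A list of 14 hepatocyte regulators held transcription factors and the interleukin-6 receptor genes Il6ra and Il6st. Of these 14, 0 passed and 0 had an unadjusted p under 0.05, with Foxa2 at 0.29 (SE 0.17), Stat3 at -0.32 (SE 0.18) and Foxa3 at -0.27 (SE 0.25).

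Of 20 acute phase genes, none of them among the 37, 15 were below 0, with a median of -0.09 and 0 past the threshold. Hp, the haptoglobin gene, was at -0.49 (SE 0.12, adjusted p = 0.770) and lies on chromosome 8 only 39 tested genes from Terf2ip. Itih4 was at -0.29 (SE 0.10, adjusted p = 0.770). Both had all knockout mice below all wild-type mice, as did 1.30% of all genes tested. They were also the 2 of the 20 genes at an unadjusted p under 0.05, against 6.35% of all genes tested. Orm3 was at -0.49 (SE 0.26). In single mice the median deviation of the list was lowest in knockout replicates 4 and 1 (-0.32 and -0.22) and was 0.08 in knockout replicate 2. Knockout replicates 4 and 1 were also the lowest on the brightest probe of each fibrinogen chain, though not on the dimmer Fga probe.

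The tissue label was borne out by all 10 hepatocyte markers, whose log2 summed signal was from 12.93 to 13.06 in wild-type and from 12.84 to 12.89 in knockout mice. The ranges did not overlap, while the summed signal of the 37 genes ran from 13.68 to 13.76 and from 13.55 to 13.70, and the part of the first in the second was not tested. The hepatocyte list had a median of -0.05 with 4 of 10 above 0, and its bright albumin gene, Alb, was at -0.21 and at 0.02 after quantile normalization. In bulk tissue, fewer cells of a type and less RNA per cell cannot be told apart. Of the markers of other cell types 0 passed in any list. At an unadjusted p under 0.05 were 3 of 6 cholangiocyte, 2 of 6 platelet and 2 of 8 stellate markers. So were 1 of 8 endothelial and 1 of 7 T and NK cell markers, but 0 Kupffer cell, neutrophil or erythrocyte markers. The share over all genes tested was 6.35%. Median log2 fold changes were 0.03 for 8 endothelial, 0.07 for 8 stellate, -0.14 for 7 T and NK cell and 0.23 for 4 erythrocyte markers. For 5 neutrophil markers the median was -0.70 (summed signal from 2.78 to 4.16 in wild-type and from 2.69 to 3.35 in knockout mice). For 6 platelet markers it was -0.57 (from 0.49 to 1.17 and from 0.59 to 0.77), and for 6 cholangiocyte markers 0.52 (from 1.74 to 2.26 and from 2.08 to 3.11). Many of these probes were dim. The brightest platelet marker, Pf4, was at 0.08, and the others had genotype mean signals from -3.77 to -2.42. Krt7, Epcam and Tspan8, cholangiocyte markers, had wild-type means from -2.74 to -2.44. Krt19 and Spp1 were brighter, with wild-type means of -0.75 and 1.25, and were at 0.59 and 0.69. Among neutrophil markers, S100a9 (wild-type mean 2.32) was at -0.86 and Elane (1.99) at -0.13. The dimmest probe well above background was between -4.31 and -3.43, depending on the array.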

How the data were processed

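Total RNA from liver was hybridized to Agilent mouse arrays, 1 mouse per array. Per the file headers, the authors extracted spot intensities on a linear scale with Agilent Feature Extraction 10.7.3.1 on a design annotated on mm9. The deposited processed signal is a background-subtracted intensity that was not scaled from one array to another. A log2 table of the same arrays was deposited by the authors as well, and the submitters' processing notes name limma. That table lay within a median of 0.00144 on the log2 scale of the scanner values after normexp (offset 50) and quantile normalization, and its column medians were 6.39 to 6.40, so it is not centred on genes.

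Outlier spots (145 to 205 of 59305 non-control spots per array) were left out, spots of a probe were averaged as log2, and each array's 75th percentile was subtracted. No spot was saturated. Symbols came from RefSeq accessions of the GRCm38.p6 table for 26050 probes (46.8%), and 29631 probes stayed unnamed. Probes well above background on at least 4 of 8 arrays were kept, and the brightest represented each gene. Genotypes were compared without covariates in limma 3.58.1 (R 4.3.3), with Benjamini-Hochberg adjustment over 14060 genes. Adjusted p values are limma's. Exact permutation tests were two-sided over 70 partings of the arrays. The procedure was checked on simulated data.

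The members and lists were chosen with earlier results of these data known. Values per mouse are given for members with non-overlapping genotypes, the 4 with the smallest p among complement components, among coagulation factors and among inhibitors, and the one that varied most between wild-type mice (C6). C8a, C8b and the fibrinogen chains were added after their values were seen. From each other list, the 4 genes with the smallest p are named, beside C1qa and C1qb, which were also added later. Some of these genes are not reported here. Alternatives were other normalizations, filters, probe summaries, variance models, slide and replicate blocks, single slides and leaving out each mouse. The number of arrays limits the precision.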

Additional observations from a re-analysis of the deposited data

Results flagged for a closer look

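In 8 of 104 groups of 4 arrays a mouse's gap to the nearest of the other three, as a share of the group's range, was above Dixon's 95% critical value, a level that chance passes by definition in about 1 in 20 groups. In wild-type liver these were Hc in replicate 1 (8.14, against 8.31 to 8.34 in the others), Serping1 in replicate 2 (7.74, against 7.86 to 7.89), Fgg in replicate 1 (10.05, against 9.94 to 9.95) and Plg in replicate 3 (8.66, against 8.42 to 8.45). In knockout liver they were Kng1 in replicate 3 (10.45, against 10.25 to 10.27), Klkb1 in replicate 2 (5.9999, against 5.87 to 5.89), Serpinc1 in replicate 2 (9.97, against 9.91 in the others) and Pros1 in replicate 1 (2.27, against 2.56 to 2.60). The gaps were small, and none of these genes passed with or without the mouse. The high values of knockout replicate 2 for C6, C8a and C8b did not meet this criterion.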

How the results depend on the processing

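Under all 20 alternatives 0 of the 37 genes and 0 of the further complement and coagulation genes passed. With the replicate block 0 of the 37 genes passed and 3 were at an unadjusted p under 0.05. Same-numbered mice of the genotypes did not deviate together (correlations -0.18 to 0.10). These correlations gave no sign that the numbers pair the mice, but they cannot exclude a pairing. Normexp was run on median signals in place of the planned mean signals, and cyclic loess was added after the data were seen. The 2 of 37 genes at an unadjusted p under 0.05 became 5 in the authors' value table (3 higher and 2 lower in the knockout) and with cyclic loess (1 and 4), 4 with trended and robust variance (2 and 2), 1 without a filter, 0 on slide 1, 1 on slide 2 and 1 to 3 without single mice (1 without wild-type replicate 2 or knockout replicate 4). F11 was among them in 18 of 20 alternatives, C4b, C9 and Proz in 8 each. The complement median was -0.084 with cyclic loess and -0.10 on slide 2, and between -0.076 and 0.013 without single mice. The coagulation median was -0.089 with cyclic loess and between -0.053 and 0.012 without single mice, and the inhibitor median between -0.011 and 0.055. The causes were not tested.

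Of 660 gene values under alternatives 631 kept their direction and their side of the threshold, and 29 changed sign, all far from the threshold. With normexp and quantile normalization C3 was at 0.015, Cfi at -0.030, C6 at -0.0047 and Fgb at 0.025. With quantile normalization C3 was at 0.038 and C6 at -0.021. In the authors' value table Cfi was at -0.022, C6 at -0.0013 and Fgb at 0.038. With cyclic loess Cfi was at -0.018 and C6 at -0.017. On slide 1 C8a was at 0.42 and Foxa2 at -0.026. On slide 2 Cfi was at -0.19, C6 at -0.18, C8b at -0.082, C1qc at 0.017 and Stat3 at 0.0080. Without single mice Cfi ran from -0.0062 to 0.094, C6 from -0.24 to 0.18, C8a from -0.28 to 0.18, Fga from -0.30 to 0.0063 and C8b from -0.029 to 0.47.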
